A study of Mus musculus with 2 samples.

Results

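In the hindbrain of mouse embryos, 893 stretches of open chromatin were more than 2000 bp wide in both of 2 DNase-seq libraries. DNase-seq finds open chromatin by cutting nuclei with DNase I and sequencing the cut ends. A hotspot is a stretch in which the authors' caller found raised cutting, and a peak is a 150 bp window of high cutting, counted here for a hotspot where its centre lies inside. The stretches were chosen by width alone. A replicate 1 hotspot was kept if it was wider than 2000 bp, lay on chromosomes 1 to 19, X or Y, and overlapped a replicate 2 hotspot that was also wider than 2000 bp. They are called wide hotspots here, and 893 of 130427 replicate 1 hotspots met the rule (0.685%). They overlapped 885 of the 154173 hotspots of replicate 2. Width is therefore what chose them and is given as a description.

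Both libraries came from hindbrain of B6NCrl embryos at day 11.5, with male and female embryos pooled. The hindbrain is the rear of the embryonic brain, from which the medulla, pons and cerebellum form. The labels give the libraries separate biosamples but the same donor record, and both were sequenced on HiSeq 2500 and NextSeq 500 instruments. Nothing was treated and no second tissue was measured. With 1 group of 2 libraries no test across samples was possible. All results are counts and medians within each library, and intervals are exact 95% intervals that cover counting error only. Tissue holds many cell types, so more open cells and more cutting per cell cannot be told apart. The number of reads per library was not stated in those sources. Of 10 genes fixed as hindbrain markers, 8 had a peak within 1 kb of a start in both libraries. Hoxa2 and Hoxb2 had one only in replicate 2. Of 5 forebrain genes 4 had one in both, and all 5 mesenchyme genes did. None of 4 endothelial genes and none of 4 blood genes did. Open starts were common: 13385 of 21851 protein-coding genes in replicate 1 and 14372 in replicate 2 had a start inside a hotspot. The marker counts therefore do not by themselves check the tissue label. Foxd1, on the mesenchyme list, was the only 1 of the 28 marker genes with a start in a wide hotspot, so the wide hotspots do not check it either.

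Open chromatin at most mammalian promoters is short and lies where nucleosomes are displaced next to the start of transcription. Most such promoters are CpG islands, stretches rich in the CpG dinucleotide that methylation has depleted elsewhere in the genome. Genes of transcription factors that direct the development of the nervous system often have, beside the promoter, further regulatory elements just upstream and in their introns.

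To show what lies under these hotspots, the following are the highest replicate 1 peaks clear of any annotated exon in 4 wide hotspots at gene starts and in 4 with no protein-coding start. All are on the plus strand of mm10, taken from the RefSeq sequence of GRCm38. Capitals mark matches, on either strand, to the GC box of Sp and Klf factors (GGGCGG), the CCAAT box of NF-Y, and the Sox cores ACAATG and ACAAAG.
Id2, chr12:25098836-25098985: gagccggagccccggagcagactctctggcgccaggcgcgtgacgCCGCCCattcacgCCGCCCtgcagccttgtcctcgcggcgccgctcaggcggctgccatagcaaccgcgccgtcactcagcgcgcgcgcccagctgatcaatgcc
Sox2, chr3:34649856-34650005: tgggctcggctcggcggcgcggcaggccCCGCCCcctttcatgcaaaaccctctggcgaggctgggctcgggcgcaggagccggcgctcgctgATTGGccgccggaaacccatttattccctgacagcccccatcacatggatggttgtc
Zic2, chr14:122474216-122474365: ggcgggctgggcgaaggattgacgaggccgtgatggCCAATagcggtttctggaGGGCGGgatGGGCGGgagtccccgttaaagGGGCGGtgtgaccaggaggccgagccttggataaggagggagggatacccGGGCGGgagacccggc
Arrdc3, chr13:80885536-80885685: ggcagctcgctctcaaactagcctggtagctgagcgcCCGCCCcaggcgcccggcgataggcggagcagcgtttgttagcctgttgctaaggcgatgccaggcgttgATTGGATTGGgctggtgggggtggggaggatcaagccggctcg
Near Sox21, chr14:118230556-118230705: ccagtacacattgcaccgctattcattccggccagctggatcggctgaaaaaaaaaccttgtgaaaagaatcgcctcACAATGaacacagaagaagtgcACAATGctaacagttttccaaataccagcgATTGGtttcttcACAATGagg
Start of the lncRNA Gm13330, chr2:18030696-18030845: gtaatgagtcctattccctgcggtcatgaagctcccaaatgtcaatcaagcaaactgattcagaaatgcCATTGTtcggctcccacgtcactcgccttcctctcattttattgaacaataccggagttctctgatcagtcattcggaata
Near Irx5, chr8:92362156-92362305: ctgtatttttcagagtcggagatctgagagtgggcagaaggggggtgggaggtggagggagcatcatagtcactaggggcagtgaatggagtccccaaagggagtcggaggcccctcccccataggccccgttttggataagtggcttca
Near Pou3f3, chr1:42704456-42704605: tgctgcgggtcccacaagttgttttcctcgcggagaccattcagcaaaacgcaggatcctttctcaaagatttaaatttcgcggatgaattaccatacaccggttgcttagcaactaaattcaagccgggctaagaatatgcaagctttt
The Id2 peak was centred 1771 bp upstream of the nearest Id2 start and had a height of 117. The Sox2 peak lay 474 bp upstream of its start at a height of 115, and the Zic2 peak 1144 bp upstream at 95. The Zic2 peak held 4 GC boxes and 1 CCAAT box, and the peak near Sox21 held 3 Sox cores of the form ACAATG. The peaks near Irx5 and Pou3f3 matched none of these letters. The peaks shown are examples and do not compare hotspots with and without a protein-coding start. Among such peaks not shown, those at Pcdh7 and Brd2 held no GC box, while those near Tex44 and Chd3 did. The Gm13330 peak is named after its hotspot, which holds the start of that lncRNA. The peak itself was clear of exons, so it did not cover that start. Height is the authors' own whole-number value per peak, and no source here states how it was scaled, so heights were read within a library.

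Ordered by the smaller of both widths, the widest hotspot was at Tnrc18, which encodes a BAH domain chromatin protein (chr5:142815477-142824493). It was 9017 bp wide in replicate 1 and 13542 bp in replicate 2, with 18 and 26 peaks. The second lay at Id2, which encodes an inhibitor of bHLH factors (chr12:25095154-25101818), with 6665 bp and 12 peaks in replicate 1 and 7795 bp and 13 peaks in replicate 2. The protocadherin gene Pcdh7 followed with 6041 bp and 7571 bp and 14 and 17 peaks. All 3 were wider and had more peaks in replicate 2.

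Further down this order stood 6 more genes. Marcks, which encodes an actin-binding substrate of protein kinase C, had 5660 bp in replicate 1 and 5980 bp in replicate 2. Pou3f3, a POU factor gene of the developing brain, had 5510 bp and 8835 bp. Tgif1, which encodes a homeodomain repressor, had 5307 bp and 6820 bp. Vcan, the gene of the matrix proteoglycan versican, was slightly narrower in replicate 2 (5209 bp and 4981 bp). So was Vim, the gene of the intermediate filament vimentin of neural progenitors (4684 bp and 4583 bp). Arrdc3, an arrestin domain gene, had 4923 bp and 5039 bp. Of these 6, Pou3f3 differed most between the libraries.

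The other genes with a start in the 20 widest were Sox2, Mllt10, Brd2, H2-DMa, Col2a1, Zic2, Hivep2, Auts2 and Nectin1. Sox2 encodes the factor that keeps neural progenitors undifferentiated, and its hotspot was 7388 bp wide in replicate 1 and 4641 bp in replicate 2. Mllt10 encodes a cofactor of the histone methyltransferase Dot1l and had 9691 bp, the widest hotspot of replicate 1, but 4325 bp in replicate 2. Brd2, a bromodomain gene, and H2-DMa, a gene of antigen presentation, had starts in the same hotspot of 4265 bp and 5997 bp. Zic2 encodes a zinc finger factor of the dorsal neural tube and had 4258 bp and 8052 bp. The widths at Col2a1 (type II collagen), Hivep2 (a zinc finger factor), Auts2 (a Polycomb-associated protein) and Nectin1 (a cell adhesion protein) ran from 4033 bp to 4260 bp in replicate 1 and from 4268 bp to 5674 bp in replicate 2. Of the 20, 3 held no protein-coding start.

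Most wide hotspots were only slightly wider than the threshold. The median width was 2336 bp in replicate 1 (quartiles 2143 and 2705 bp) and 2982 bp in replicate 2 (2527 and 3678 bp). Just inside it were a hotspot with no gene start at chr1:192833727-192835727 and those at Osbpl6 and Ube2d3, each 2001 bp wide in replicate 1. Just outside were those at Prickle1 (2000 bp), Tmtc2 and Sik1 (1998 bp each), whose replicate 2 hotspots had 2474, 2450 and 2130 bp. In both libraries 892 of the 893 carried the value 100, which the files use for the strongest hotspots on their −log10 false discovery rate scale. The exception was the hotspot at the nuclear receptor gene Nr2f1, with 5.52 in replicate 1 and 100 in replicate 2. The share of all hotspots at 100 was not counted, so this value does not set the wide hotspots apart.

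Replicate 2 gave wider hotspots. The partner was wider in replicate 2 at 821 of 893 (91.9%, interval 89.9% to 93.6%) and narrower at 69, with a median ratio of 1.20 (quartiles 1.07 and 1.41). Replicate 2 had 5547 hotspots over 2000 bp against 922 in replicate 1. Of the 922, 893 (96.9%) were wide in both, while only 16.0% of the 5547 were. The 29 replicate 1 hotspots left out all overlapped a replicate 2 hotspot, whose widest had a median of 1860 bp. The 4662 left out of replicate 2 spanned a median of 3 replicate 1 hotspots, the widest of which had a median of 1122 bp. The replicate 1 file thus set which stretches counted as wide in both. Across the 893, Spearman's rho between the widths of both libraries was 0.535, as a description of stretches that share those libraries.

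**Figure D1:**
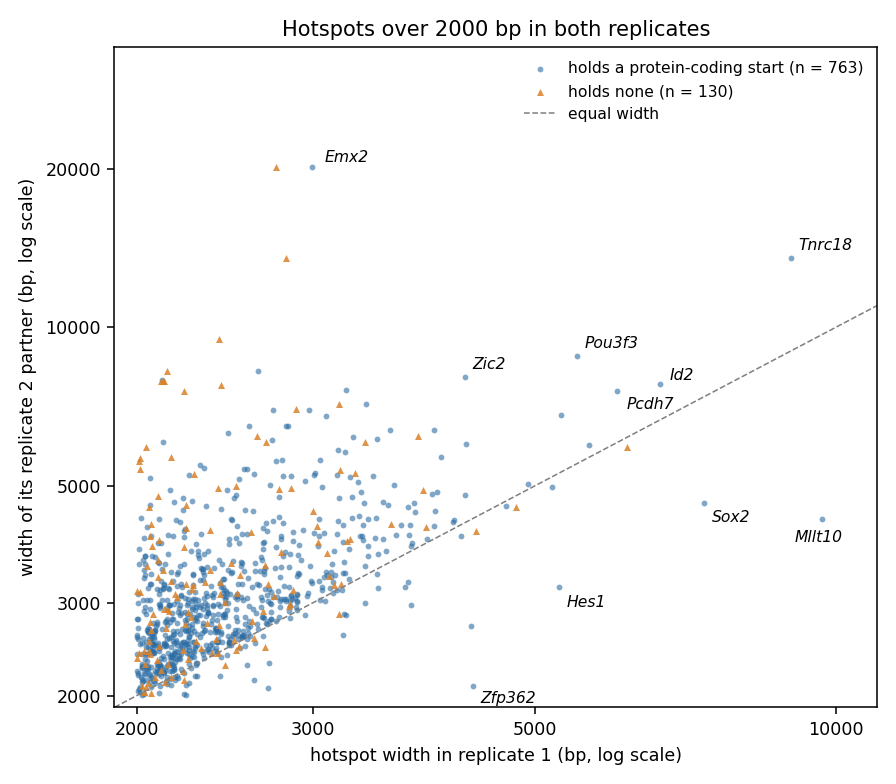
Width of each of the 893 wide hotspots in replicate 1 (horizontal, bp, log scale) and of its replicate 2 partner (vertical, bp, log scale), with the dashed line at equal width. Of the 893 points 821 lie above the line, the stretch downstream of Emx2 farthest above it with 2758 bp and 20116 bp and Mllt10 farthest below it with 9691 bp and 4325 bp.

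At the highest ratios, 1 replicate 2 hotspot faced several in replicate 1. The homeobox gene Emx2 had a replicate 2 hotspot of 20116 bp, the widest of that library (chr19:59450569-59470684). It held 39 replicate 2 peaks. Replicate 1 had 21 hotspots there that covered 62.1% of it, with 35 peaks. Of these, 2 were wide: 1 at the start of Emx2 (2997 bp) and 1 downstream (2758 bp), with ratios of 6.71 and 7.29. At Tnrc18, the replicate 2 hotspot of 13542 bp held 6 replicate 1 hotspots that covered 94.5% of it, and the smaller wide one had a ratio of 4.80. The lncRNA Gm26872, with the homeobox gene Barhl2 as its nearest protein-coding neighbour, had 2417 bp against 9501 bp. A stretch near Bahcc1, a BAH domain gene, had 2144 bp against 8276 bp. Inside the replicate 2 hotspots at these 4 loci the libraries had similar numbers of peaks: 25 in replicate 1 and 26 in replicate 2 at Tnrc18, 21 and 17 at Gm26872, and 14 and 15 at Bahcc1.

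At the lowest ratios replicate 2 had several hotspots under 1 of replicate 1. The ratios were 0.446 at Mllt10, 0.482 at the zinc finger gene Zfp362, 0.607 at the Notch target gene Hes1, 0.627 at the histone gene Hist1h1b and 0.628 at Sox2. At Hes1 a replicate 1 hotspot of 5288 bp with 12 peaks faced a partner of 3211 bp, but 2 replicate 2 hotspots together covered 96.1% of it and held 9 peaks. At Sox2, 2 replicate 2 hotspots covered 94.1% of the replicate 1 hotspot. Neighbouring hotspots were often close. In replicate 1, 52.3% of wide hotspots (interval 49.0% to 55.6%) had another hotspot less than 150 bp away, against 30.1% of the other hotspots. In replicate 2 it was 41.2% (38.0% to 44.6%) against 33.3%.

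**Figure D2:**
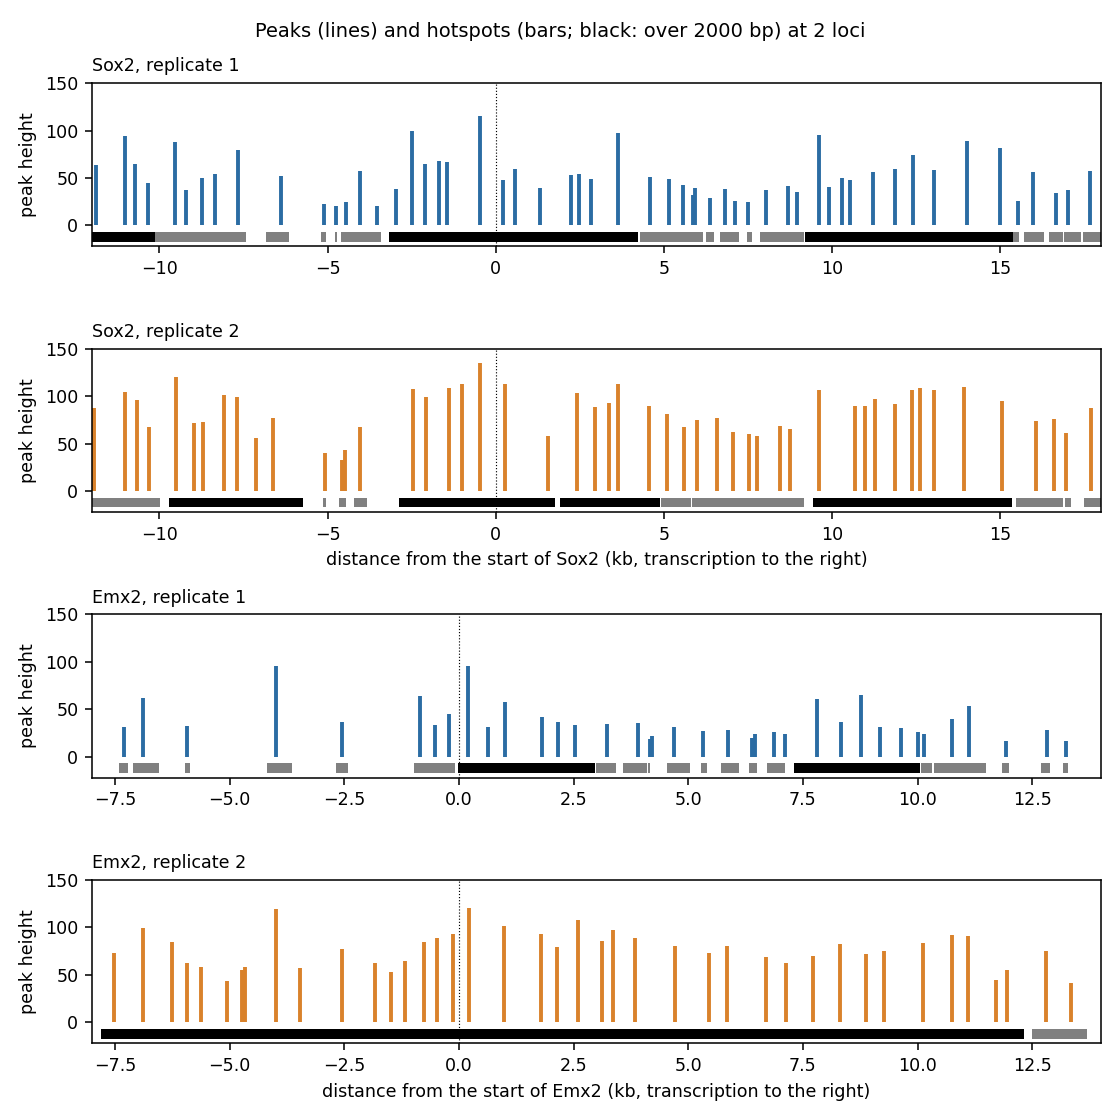
Peaks (lines, height as deposited) and hotspots (bars under the axis, black if over 2000 bp) by distance in kb from the starts of Sox2 and Emx2, each in replicate 1 (blue) and replicate 2 (orange). At Sox2 the black bar over the start is 7388 bp long in replicate 1 and 4641 bp in replicate 2, and at Emx2 the single bar of 20116 bp of replicate 2 faces 21 bars in replicate 1, of which 2 are black.

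The wide hotspots held runs of peaks. The median was 4 peaks per hotspot in replicate 1 (2 to 18) and 5 in replicate 2 (1 to 39). In replicate 1 hotspots over 1000 and up to 2000 bp wide, called mid-width hotspots here, the median was 2. These are shorter by definition, so the 2 medians do not compare equal lengths. Per kb the wide hotspots had a median of 1.85 peaks in replicate 1 and 1.56 in replicate 2. Neighbouring peak centres were a median of 460 bp apart in replicate 1 (quartiles 360 and 620 bp) and 500 bp in replicate 2 (360 and 680 bp). By the smaller of both counts, the 5 with the most peaks were those at Tnrc18, Pcdh7, Id2 and Pou3f3 and the one in Sox2ot described below. The fewest in replicate 1, 2 each, included the hotspots at Mtmr4, a lipid phosphatase gene (126 and 142 as highest peaks), and Dmxl1 (126 and 139), which were chosen after their values were seen.

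Peaks in wide hotspots were higher than most, though most of the 1000 highest peaks of each library lay elsewhere. The median height of a peak in a wide hotspot was 65 in replicate 1 and 104 in replicate 2, against 36 and 50 over all peaks. Of the 1000 highest peaks 12% lay in a wide hotspot in replicate 1 (interval 10.1% to 14.2%) and 12.6% in replicate 2 (10.6% to 14.8%). Of all peaks, wide hotspots held a smaller share, 2.77% and 2.36%. Genes whose highest promoter peak was in the top 10% had a start in a wide hotspot in 10.7% of cases in replicate 1 (165 of 1542) and 12.5% in replicate 2 (209 of 1675). Of the 838 genes in wide hotspots, 19.7% and 24.9% were in that top 10%.

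Most wide hotspots held a gene start. A protein-coding start, from the GENCODE M21 basic set on mm10, lay in 763 of 893 (85.4%, interval 83.0% to 87.7%). The share was 72.9% (71.9% to 74.0%) in mid-width hotspots, 34.8% in those over 500 and up to 1000 bp and 2.37% in narrower ones. A wider stretch also covers more sequence, and the part of length in these shares was not tested. Starts of 838 of 21851 protein-coding genes lay in a wide hotspot (3.84%). In 77 wide hotspots there were starts of at least 2 protein-coding genes, on opposite strands in 74. A further 29 held the start of another kind of gene, mostly lncRNAs, and 101 (11.3%) held none.

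The open stretch usually reached further into the gene than ahead of it. In the 685 wide hotspots with exactly 1 protein-coding gene, distances were counted from the most upstream start inside the replicate 1 hotspot. The stretch ran a median of 965 bp upstream and 1439 bp downstream of it in replicate 1, and 1163 bp and 1754 bp in replicate 2. It reached further downstream in 70.8% (interval 67.2% to 74.2%) in replicate 1 and 73.3% (69.8% to 76.6%) in replicate 2. Where a hotspot holds several starts of its gene, counting from the first adds to the downstream reach. In the 459 hotspots whose starts inside spanned at most 100 bp, the shares were 65.8% (61.3% to 70.1%) and 68.8% (64.4% to 73.1%). Starts of the same gene outside the hotspot were not considered, and some genes have starts in 2 of these hotspots, such as Sox6 and Auts2. The highest peak lay within 500 bp of the start in 73.4% of the 685 in replicate 1 and 73.0% in replicate 2.

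Single genes varied. Tgif1 reached further downstream, as most did, with 328 bp upstream and 4978 bp downstream in replicate 1. Its starts were spread across 3756 bp, and its highest peak lay 3695 bp downstream of the first, close to the last. Other genes reached further upstream. Id2 reached 4678 bp upstream and 1986 bp downstream. Auts2 reached 3098 bp upstream and 1040 bp downstream, and Klf12, a Klf repressor gene, 2645 bp and 1571 bp. In replicate 2 the direction was the same at all 4. At Pou3f3, Zic2, Sox2 and Mllt10 the longer side differed between the libraries. Pou3f3 had 1142 bp upstream and 4367 bp downstream in replicate 1, but 4622 bp and 4212 bp in replicate 2. Zic2 had 3276 bp upstream and 981 bp downstream in replicate 1, but 3365 bp and 4686 bp in replicate 2. Mllt10 had 5146 bp upstream and 4544 bp downstream in replicate 1, but 620 bp and 3704 bp in replicate 2.

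**Figure D3:**
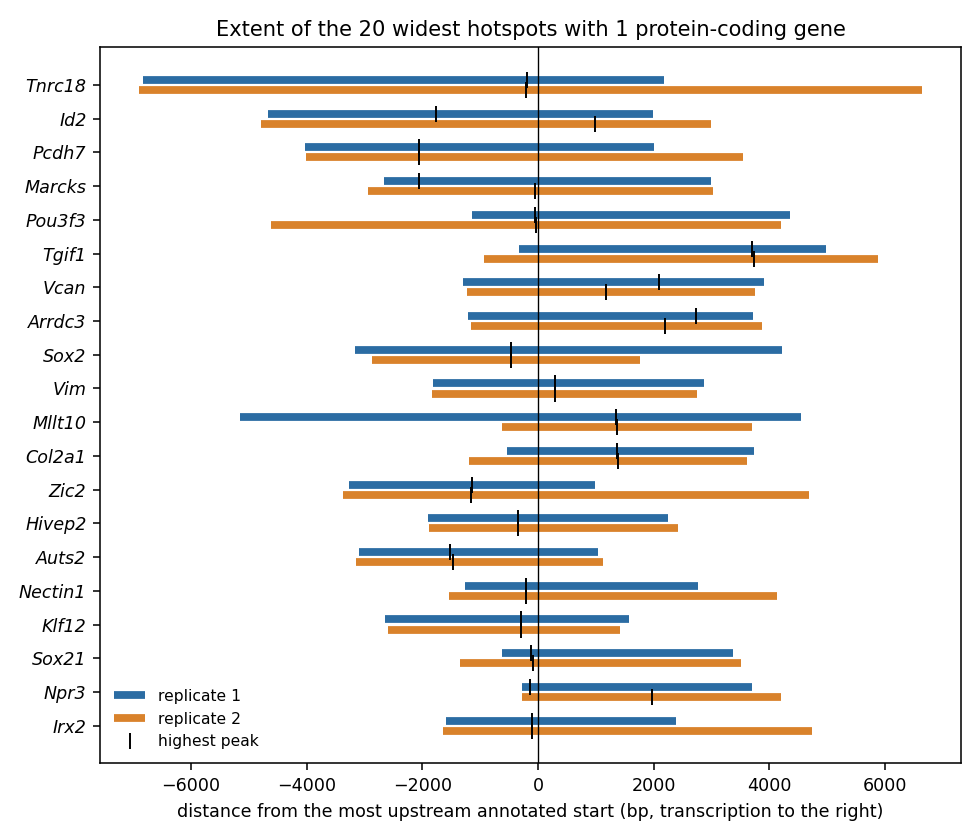
Extent of the 20 widest hotspots with exactly 1 protein-coding gene, in replicate 1 (blue) and replicate 2 (orange), with ticks at the highest peaks. Distances are in bp from the gene's most upstream start inside the replicate 1 hotspot, with transcription to the right. Both libraries show nearly the same ends at Vim, Hivep2, Auts2 and Klf12, and different ends at Tnrc18, Pou3f3, Sox2, Mllt10 and Zic2.

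Across annotated features, 46.4% of the bases of wide hotspots were intronic and 26.9% lay between genes. Bases of 5′ UTRs made up 13.1%, against 6.72% in the other replicate 1 hotspots and 0.230% of the main chromosomes. Coding exons made up 6.97%, against 4.68% and 1.32%. A lncRNA start lay in 161 wide hotspots (18%), from 167 of 10155 lncRNA genes (1.64%). In 132 of the 763 with a protein-coding start (17.3%, interval 14.7% to 20.2%) a lncRNA started on the opposite strand. In mid-width hotspots with a protein-coding start that share was 11.2% (10.3% to 12.1%), over less sequence each.

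The genes of the wide hotspots were then compared with 42 families defined by gene symbol, which held 153 of the 838. All families together had 153 of 3609 genes in wide hotspots (4.24%, interval 3.61% to 4.95%), against the 3.84% of all protein-coding genes. Of these families 27 had a larger share than all genes, 16 of them with an interval above it, 2 had an interval below it, and 9 had no gene in a wide hotspot. The 20 transcription factor families together had 48 of 361 genes (13.3%, interval 9.97% to 17.2%). The 7 families of signalling and axon guidance had 36 of 237 (15.2%, 10.9% to 20.4%). The 4 housekeeping families, of cytoplasmic and mitochondrial ribosomes, the respiratory chain and the proteasome, had 2 of 286 (0.699%, 0.0848% to 2.50%). These families were chosen with earlier results of these data known, and their counts are a description.

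Among the transcription factor families, the Iroquois, TALE, Zic, and Hes, Hey and Id genes had the largest shares. Irx2, Irx5 and Irx1 were 3 of 6 Iroquois homeobox genes (50%, interval 11.8% to 88.2%), with 3967 bp and 6387 bp at Irx2. Of the TALE homeobox cofactors there were 5 of 11 (Tgif1, Pbx3, Pknox2, Tgif2 and Pknox1). Pbx3, a partner of Hox proteins, had 3076 bp in replicate 1 and 3365 bp in replicate 2. Zic2 and Zic5 were 2 of 5 Zic genes. The Hes, Hey and Id group of bHLH repressors and inhibitors had 5 of 13, namely Id2, Hes1, Hes6, Hey2 and Id1. The Sox family had 5 of 19. Besides Sox2 they were Sox21 (3997 bp and 4874 bp), Sox12 (3797 bp and 4459 bp), Sox11 and Sox6. The first 4 are genes of neural progenitors and young neurons.

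The Klf and Sp factors, which bind GC boxes, had 8 of 26, with Klf12 (4217 bp and 4021 bp), Klf10 and Sp3 the widest. Forkhead genes had 5 of 44, with Foxd1, a factor gene of mesenchyme, at 3582 bp and 6389 bp, ahead of Foxp2 and Foxo3. Nuclear receptors had 5 of 42, led by the glucocorticoid receptor gene Nr3c1 (3369 bp and 3956 bp), Nr4a3 and Nr2c2. The POU family had Pou3f3 and Pou2f1 of 15 genes. Six4 and Six5 were 2 of 10 genes of the sine oculis factors and their Eya coactivators, Elf2 and Etv1 2 of 21 ETS genes, and Nfib 1 of 8 Ebf and Nfi genes. Of 9 Pax genes only Pax7, a dorsal neural factor gene, had a start in a wide hotspot (2515 bp and 3978 bp).

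Hox, LIM homeobox, Nkx, T-box and Gata genes had no start in any wide hotspot, at 0 of 39, 12, 14, 16 and 6 genes. The intervals reach up to 9.03%, 26.5%, 23.2%, 20.6% and 45.9%. Many of these genes had no hotspot of any width at a start in replicate 1. There, 6 of the 39 Hox, 9 of the 12 LIM homeobox, 5 of the 14 Nkx, 7 of the 16 T-box and 3 of the 6 Gata genes had one. None of their starts lay in a replicate 1 hotspot over 2000 bp. In replicate 2 they did at 10 of 39 Hox genes, 11 of 12 LIM homeobox genes, 11 of 14 Nkx genes, 10 of 16 T-box genes and 4 of 6 Gata genes, against 4629 of 21851 protein-coding genes (21.2%). Of the Dlx, Emx, Otx, Gbx, En and Msx genes, 16 of 17 did in replicate 2, but Emx2 alone in replicate 1. Of the hindbrain markers, 2 are given here, chosen after their values were seen. Lmx1b had a hotspot of 158 bp in replicate 1 and 11494 bp in replicate 2, and Gbx2 439 bp and 6709 bp. Among factor genes with a hotspot at a start, 238 in replicate 1 and 310 in replicate 2, the median width there was 1087 bp and 3074 bp, against 980 bp and 1650 bp over all genes with one. Which library is closer to the tissue cannot be told from 2 libraries.

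Of the signalling families, the Wnt pathway had 10 of 54 genes. The ligand Wnt5a came first with 3743 bp and 4037 bp, and the receptor genes Fzd8, Fzd10, Fzd5, Fzd2, Fzd4 and Fzd1 made up 6 of the 10. The others were the nuclear factor Lef1, the scaffold Axin2 and the secreted inhibitor Sfrp2. The Hedgehog pathway had 4 of 14: the nuclear factor genes Gli1 (3964 bp and 4188 bp) and Gli3, the receptor gene Ptch1 and the coreceptor gene Gas1 (3206 bp and 3178 bp). The Notch pathway had Notch1 (3048 bp and 5610 bp) and its nuclear partners Rbpj, Maml1 and Maml3 of 18 genes, and no ligand. The BMP and TGFB pathway had 7 of 46, of which Acvr2a, Acvr2b, Bmpr1a and Bmpr2 are receptor genes, Smad3 and Smad6 intracellular ones and Nog a secreted antagonist. The FGF pathway had 4 of 34: the ligand Fgf15, the receptor Fgfr2 (3635 bp and 4030 bp) and the inhibitors Spry2 and Spred3.

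Cadherins and protocadherins had 5 of 38, with N-cadherin, Cdh2, at 3554 bp and 3759 bp behind Pcdh7. Of 49 axon guidance genes 5 had a start in a wide hotspot, led by Sema6a (3233 bp and 5787 bp), Sema4c and Sema5b. Of 22 Eph and ephrin genes there were Epha7 (3528 bp and 3966 bp) and Efnb1.

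Chromatin regulators and growth response genes also stood above all genes. Of 96 chromatin regulator genes 16 had a start in a wide hotspot (16.7%, interval 9.84% to 25.7%). They included the Kmt2 family genes Kmt2e (3767 bp and 3903 bp), Kmt2c and Kmt2a, the heterochromatin gene Cbx3, and the Polycomb genes Ezh2, Ring1, Pcgf2 and Jarid2. Immediate early genes had 5 of 25: Mycn (3287 bp and 6206 bp), Jun, Ier2, Myc and Jund. Of 24 phosphatase genes of MAP kinase feedback 4 did, Dusp4, Dusp5, Dusp1 and Dusp7. Cell cycle genes had 7 of 68, with E2f3 (3458 bp and 3990 bp), Ccnd2 and Ccne2 the widest. Zinc finger genes of the Zfp series, at 17 of 391 (4.35%), were near all genes, with Zfp827, Zfp91 and Zfp516 the widest.

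Housekeeping and tissue-restricted families stood low. Taken singly, only the keratins and the olfactory and vomeronasal receptors had an interval below the 3.84% of all genes. The 4 housekeeping families had one below it only together. Of the housekeeping genes only Atp5g2, an ATP synthase subunit gene (2662 bp and 3082 bp), and Mrpl40, a mitochondrial ribosome gene (2428 bp and 2622 bp), had a start in a wide hotspot. Their promoter peaks were nonetheless high: among genes with a peak within 1 kb of a start, the median height was 110 in replicate 1 and 131 in replicate 2 for the 4 families, against 86 and 116 for the factor families. In the top 10% of promoter heights 0 of 40 housekeeping genes in replicate 1 had a start in a wide hotspot (interval up to 8.81%) and 0 of 34 in replicate 2 (up to 10.3%). For factor genes it was 2 of 16 (1.55% to 38.4%) and 6 of 23 (10.2% to 48.4%). The hotspots at housekeeping starts had a median width of 1268 bp in replicate 2. Ion channels had 2 of 132 (Kcnn1 and Cacna1a), solute carriers 9 of 361, led by Slc9a5, Slc6a15 and Slc16a1, and histones Hist2h4 and Hist1h1b of 67. No keratin gene of 105 and no olfactory or vomeronasal receptor gene of 1419 had a start in a wide hotspot. Only 7 of these keratin genes and 7 of these receptor genes had a start in a replicate 1 hotspot of any width.

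**Figure D4:**
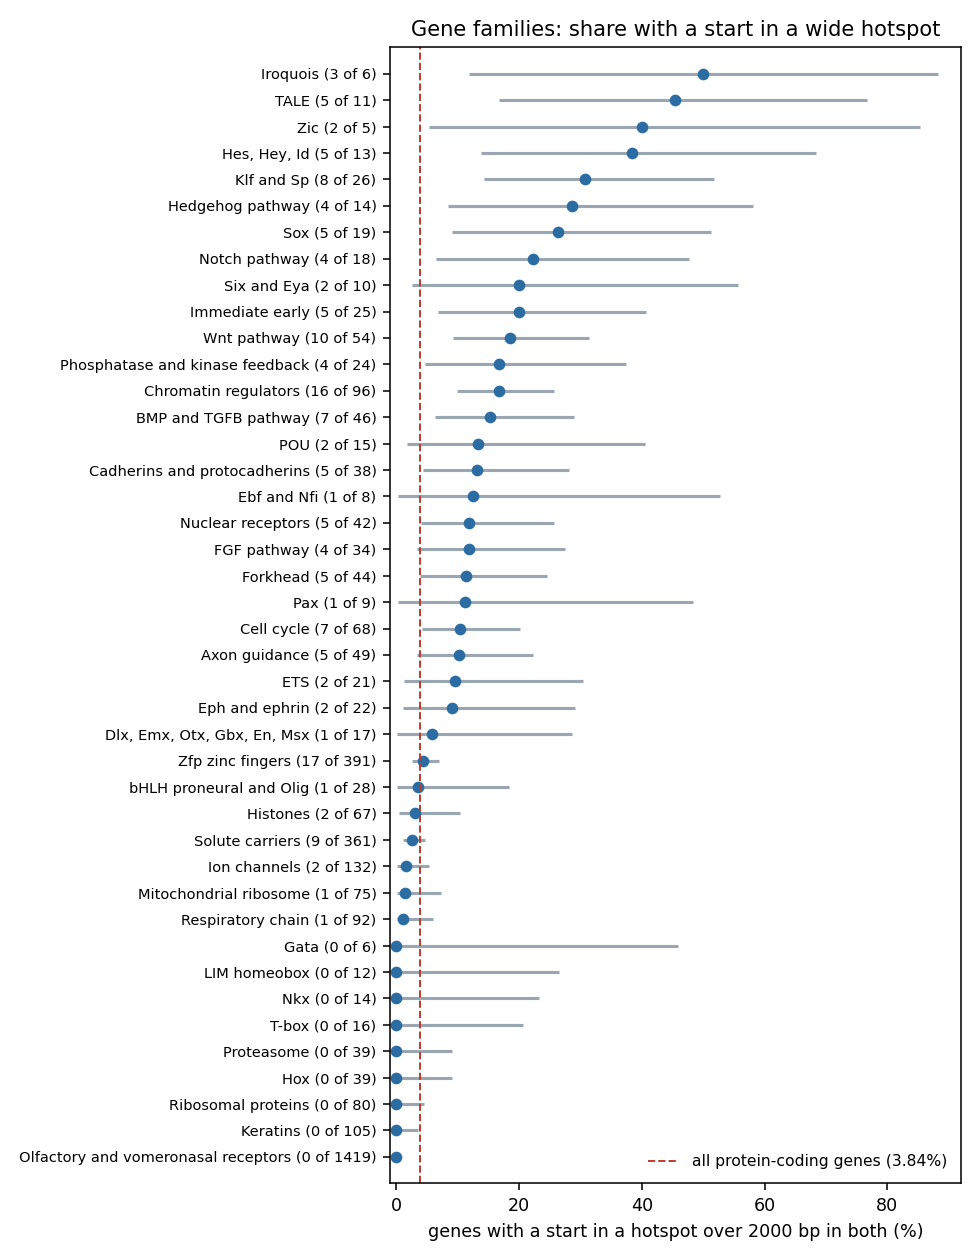
Share of the genes of each of 42 families with a start in a wide hotspot (points, percent) with exact 95% intervals (lines), and the share of all protein-coding genes (dashed line, 3.84%). Iroquois, TALE, Zic and Hes, Hey and Id genes stand at the top with 38.5% to 50%, and the 9 families at 0 include Hox genes, ribosomal proteins and olfactory receptors.

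The wide hotspots with no gene start held slightly more peaks than those with one. Their median width was 2239 bp in replicate 1 and 3250 bp in replicate 2, with 5 and 6 peaks, against 2340 bp and 2961 bp and 4 peaks in each library for those with a protein-coding start. Their highest peaks were lower, with medians of 95 and 121 against 110 and 134. Of the 101, 43 were mostly intronic and 46 mostly intergenic. The median distance to the nearest protein-coding start was 10229 bp (19 to 565371 bp), 34 lay within 5 kb and 29 beyond 50 kb. That nearest gene had a wide hotspot of its own at 25 of the 101. It belonged to a transcription factor family at 21 (20.8%, interval 13.4% to 30.01%), against 10.01% (8.61% to 11.6%) of the 1669 mid-width hotspots that also held no start. The POU factor gene Pou3f2 was nearest to 3 of them.

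The widest without a start lay 3655 bp from the Irx5 start, mostly in intronic sequence (chr8:92361404-92366192), with 4789 bp and 9 peaks in replicate 1 and 4559 bp and 7 peaks in replicate 2. The next lay 3386 bp from Sox21 (chr14:118229275-118233644), with 4370 bp and 4103 bp and 8 peaks in each. The third, 3893 bp and 4173 bp wide on chromosome 18, was 556222 bp from the zinc finger gene Zfp608. A stretch 13909 bp from Tex44 had 3593 bp and 4236 bp. Others lay 7282 bp from Pou3f3, 1860 bp from the ciliary factor gene Rfx4, 2118 bp from Zfp503 and 1056 bp from A930004D18Rik. Those at Chd3, a chromatin remodeller gene, and Efna5, an ephrin gene, lay only 26 bp and 23 bp from an annotated start.

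Some loci held several wide hotspots. There were 27 groups of wide hotspots at most 20 kb apart, with 63 of the 893 in them. The largest held 6, at chr2:18025750-18066048, from A930004D18Rik over Skida1 to Mllt10, with widths from 2141 bp to 9691 bp in replicate 1 and from 2364 bp to 4915 bp in replicate 2. Zic5 and Zic2 shared a group of 3 with a stretch beside Zic2. Groups of 3 also lay at Zfp503, at Pou3f2 and at Nr2f1. Groups of 2 joined the starts of Pou3f3, Sox21, Irx5, Irx2, Tgif1, Wnt5a, Lef1, Nog and Spen to a stretch close by.

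The Sox2 locus had 2. One covered the Sox2 start, from 3166 bp upstream to 4221 bp downstream in replicate 1 and from 2868 bp upstream to 1772 bp downstream in replicate 2. The other began 9199 bp downstream of the Sox2 start in Sox2ot, the lncRNA gene in which Sox2 lies (chr3:34659604-34665786). It had 6183 bp in replicate 1 and 5919 bp in replicate 2, with 10 peaks in each, and its highest peak had heights of 95 and 110. Its GC content was 49.7%, against a median of 60.3% over all wide hotspots.

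The sequence of the wide hotspots was rich in CpG. The median CpG observed to expected ratio was 0.750 (quartiles 0.648 and 0.842) and the median GC content 60.3%. Wide hotspots with a protein-coding start had a median ratio of 0.770. In mid-width hotspots with such a start it was 0.757, in those over 500 and up to 1000 bp 0.732 and in narrower ones 0.614. Without a protein-coding start the medians were 0.531, 0.437, 0.356 and 0.247 in the same order. Among hotspots with a start the ratio hardly rose above 1000 bp, while among those without it rose over every width class. Within the 893, width and CpG ratio were nearly unrelated (Spearman's rho -0.06 across stretches). A median of 9.17% of the bases were repeats, up to 32.3% at Phf21a, which was chosen after its value was seen.

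**Figure D5:**
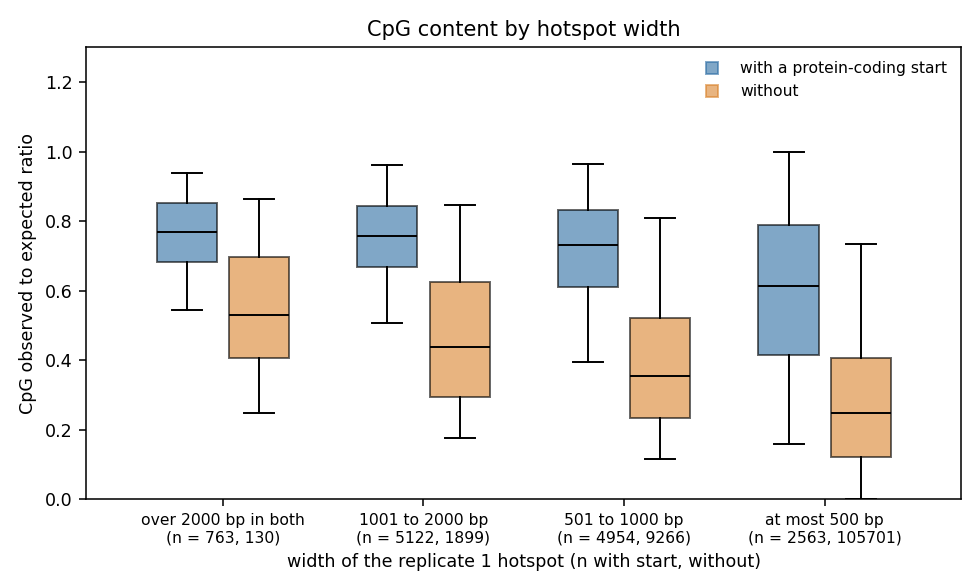
CpG observed to expected ratio of replicate 1 hotspots by width class, with (blue) and without (orange) a protein-coding start, as boxes of the quartiles with the median and whiskers at the 5th and 95th percentiles. The medians without a start fall from 0.531 in the wide hotspots to 0.247 in the narrowest, and those with a start from 0.770 to 0.614.

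Letters known from factor binding sites were counted in the 150 bp peaks, on both strands. Among peaks within 500 bp of a protein-coding start, 50.6% of replicate 1 peaks in wide hotspots held a GC box (GGGCGG; interval 48.2% to 53.1%), against 43.7% (43.1% to 44.3%) of the other such peaks. Replicate 2 gave 53.9% (51.5% to 56.3%) and 44.6% (43.9% to 45.2%). The ETS site CCGGAAG went the other way, with 4.94% against 8.94% in replicate 1 and 4.89% against 8.92% in replicate 2, and so did the NRF1 core GCATGCGC, with 1.47% against 2.82% and 1.29% against 2.42%. ETS factors and NRF1 bind the promoters of many housekeeping genes. The CCAAT box did not separate them in replicate 1 (20.8% and 21.3%, with overlapping intervals) or in replicate 2 (20.1% and 20.3%). The median GC content of these peaks was 68.7% in wide hotspots and 64% elsewhere in replicate 1, and 69.3% and 64.7% in replicate 2, and its part in these shares was not tested.

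Among peaks over 500 bp from a protein-coding start the differences were larger for the GC box. As 763 of 893 wide hotspots held such a start, these peaks can still lie close to a promoter. Distance to the start was not matched between peaks in wide hotspots and the others. It was found in 26.7% of replicate 1 peaks in wide hotspots and 7.76% of the others, and in 25.7% and 7.41% in replicate 2. The E-boxes CAGCTG and CATCTG of proneural factors were less frequent in wide hotspots, at 9.17% and 7.83% against 14.1% and 14.9% in replicate 1 and at 9.56% and 9.01% against 15.3% and 16.2% in replicate 2. The Sox cores ACAATG and ACAAAG were found in 6.61% and 13.8% against 9.58% and 16.4% in replicate 1. The homeodomain core TAATTA was found in 2.07% against 3.21% there, and the intervals of all 5 of these pairs were apart. The median GC content of these peaks was 58% in wide hotspots and 50% elsewhere in replicate 1 (57.3% and 51.3% in replicate 2), and its part in these shares was not tested. Over all replicate 1 peaks GGGCGG was found in 14.2%, CCAAT in 18.7%, ACAATG in 8.51% and ACAAAG in 14.8%. The CTCF core AGGGGGC was found in 12.1% of replicate 1 peaks at starts in wide hotspots and 9.73% of the others, with intervals apart. The NFI core TTGGCA was lower there, at 3.53% against 5.13%, and the RFX core GTTGCC stood at 5.64% against 7.01%, the first with intervals apart and the second with overlapping ones. The YY1, TATA and ATF motifs, spelled AAGATGGC, TATAAA and TGACGTCA, were searched as well. A match is a description and not a bound site.

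Wide hotspots were spread unevenly over the chromosomes. Chromosome 11 held the most, 82, and 4.95% of its protein-coding genes had a start in one. The largest shares of genes were on chromosomes 3 (6.41%) and 18 (6.07%). The X chromosome held 9, with 0.844% of its genes, and the Y chromosome none, against the 3.84% of all genes. Hotspots of any width in replicate 1 numbered 3382 on the X chromosome and only 90 on the Y chromosome. Male and female embryos were pooled, and the part of sex chromosome copy number was not tested.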

How the data were processed

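Each of the 2 libraries has a list of hotspots and a list of peaks, called per replicate on reads aligned to mm10, per the text deposited beside the files. Steps not given in the sources used here are the aligner, the caller, their versions and the read depth. For each hotspot the authors deposited a −log10 false discovery rate, with a score that follows it, running from 1.30 to 6 with stronger ones written as 100. Peaks carry a deposited score, the height, a whole number whose scaling is not stated.

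From these, widths, overlaps of at least 1 bp, peak centres inside hotspots, GENCODE M21 basic starts inside the replicate 1 hotspot, and base composition of the RefSeq GRCm38.p6 sequence were computed with Python 3.11.15, pandas 2.3.3, numpy 2.4.6 and scipy 1.17.1. Bases that several features share were assigned to coding exons first, then 5′ UTRs, 3′ UTRs, other exons and introns. Repeats are the soft-masked bases. Intervals are exact Clopper-Pearson intervals for shares. The counting of overlaps, starts, peak centres and motif matches, and the joining of hotspots, were tested on simulated regions with known answers.

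Named were genes with a start in the 20 widest hotspots, the 3 widest genes of each family, the 10 widest hotspots with no gene start, the 5 with the most peaks, the 5 highest and 5 lowest width ratios, and the 3 nearest to each side of the threshold; further family members are listed by name only. The wide hotspots, families, motifs and marker genes were chosen with earlier results of these data known. Alternatives were other width thresholds, a reciprocal overlap, joined hotspots, each library alone, all annotated transcripts and the stretch both hotspots cover. Hotspots on scaffolds and the mitochondrial chromosome were left out, as were repeated peak entries. Results on some genes are not reported here.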

Additional observations from a re-analysis of the deposited data

Results flagged for a closer look

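Outside the main chromosomes, replicate 1 had 5 hotspots over 2000 bp, 1 on the mitochondrial chromosome and 4 on scaffolds, from 2018 to 3055 bp wide. Replicate 2 had 0 there, its widest being 1979 bp. They are given because they lie in sequence that the counts above leave out. No control library was used here. The widest of replicate 2 was just under the threshold, so the counts of 5 and 0 do not show that the libraries differ there.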

How the results depend on the processing

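With the width threshold at 1500 bp there were 2738 wide hotspots and 2565 genes, median widths of 1818 and 2440 bp in replicates 1 and 2, a median ratio of 1.26, 3 peaks in replicate 1, and 1.80 and 1.47 peaks per kb. At 3000 bp there were 127 wide hotspots and 116 genes, 3369 and 4222 bp, a ratio of 1.18, 7 peaks in each library, and 1.88 and 1.71 peaks per kb. Joining hotspots under 150 bp apart gave 1911 wide hotspots and 1730 genes, a replicate 1 width of 2407 bp, and 2.00 and 1.66 peaks per kb. Both thresholds and the joining move these values by their own construction. With 1 library alone, the number ran from 922 (replicate 1) to 5547 (replicate 2), the share with a protein-coding start from 77.8% to 84.7%, the number of genes from 855 to 4629, and the families above the share of all genes from 28 to 34. Replicate 1 therefore sets the count. Under 50% reciprocal overlap, all annotated transcripts and the stretch both hotspots cover, the main results tried stayed within 1.5 times for counts and within their intervals for medians and shares. The share with a protein-coding start ran from 83.3% to 87.4% over all settings that keep both libraries, and 22 to 30 of the 42 families stood above all genes. Of single family shares, 36 of 42 left their interval with replicate 2 alone, 20 at 3000 bp, 10 at 1500 bp, 9 with joined hotspots and 1 with 50% reciprocal overlap. No paired analysis was possible because the series has 1 group. Without read counts the depth of either library is unknown.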
